A study of Mus musculus with 2 samples.

Results

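The transcription factor p53 and 9 genes around it were followed in 4T1 cells, a mouse mammary carcinoma line that is known to lack functional p53. The 10 genes were listed by name for their place in the pathway, at a time when earlier results of these data were known, and comprised Trp53, its relative Trp73, the p53 inhibitors Mdm2 and Mdm4, Cdkn2a, and the target genes Cdkn1a, Ccng1, Bax, Bbc3 and Pmaip1. All 10 were found by Ensembl identifier among the 21911 genes of the deposited expression table. The cells were measured after 48 h in PBS or in potassium oxalate, with 1 library of oligo(dT)-enriched RNA for each condition. For the oxalate dose, the study's methods and the sample characteristics give 20 µM, whereas the treatment protocol in the labels gives 20 mM. Both libraries come from the same line, and the labels name no transgene or further treatment. The values are FPKM, fragments scaled by transcript length and by library depth. Levels of different genes can thus be compared as far as the lengths used are right. Since each condition is a single library, no difference has a replicate check and no test between conditions was made.

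p53 is a transcription factor that is kept low in unstressed cells and accumulates after DNA damage or oncogenic stress. It then switches on genes for cell-cycle arrest and cell death, and also Mdm2, the ubiquitin ligase that returns p53 to a low level. The Cdkn2a locus feeds into the same circuit, since its ARF product blocks Mdm2. Cells that have lost p53 function still transcribe many of the target genes, because other factors act on the same promoters.

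p53 binds DNA through a decamer of purines, a core and pyrimidines, and usually through a pair of such decamers near each other. The promoter windows of the RefSeq annotation (GRCm38.p6), from 250 bases before to 50 bases after each gene start, were searched for the p53 decamer, a pattern of 10 bases that is the same on both strands. A window was held for 9 of the 10 genes, and 5 of these 9 contained a decamer. In the wider target lists, which include the core targets, 14 of 63 genes contained one. Among all 27025 genes with a window, 9.55% contained one. Counted by window, it was found in 5 of 15 windows of the core genes (33.3%) and in 8.36% of all 32851 windows. The Cdkn1a window was the only one of the 9 genes with a pair of decamers at most 13 bases apart, which was found in 24 windows in all (0.0731%). The stretches around the matches are shown so that the letters found can be read, with the decamers in capitals and the strand of the gene read 5′ to 3′.
Cdkn1a, chr17:29090881-29090962, plus strand: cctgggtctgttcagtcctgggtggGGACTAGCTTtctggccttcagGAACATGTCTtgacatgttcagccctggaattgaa
Mdm2, chr10:117710910-117710969, minus strand: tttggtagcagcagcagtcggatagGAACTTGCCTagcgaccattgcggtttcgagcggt
Bax, chr7:45467065-45467124, minus strand: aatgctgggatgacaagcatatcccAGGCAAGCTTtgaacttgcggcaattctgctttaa
Ccng1, chr11:40755437-40755496, minus strand: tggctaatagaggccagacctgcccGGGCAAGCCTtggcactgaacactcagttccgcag
Trp53, chr11:69580259-69580318, plus strand: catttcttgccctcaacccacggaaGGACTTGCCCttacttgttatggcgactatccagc
The decamers began 73 and 51 bases before the gene start in Cdkn1a, with 12 bases between them, and 186 bases before it in Mdm2. They began 201 bases before the start in Bax, 185 in Ccng1 and 75 in Trp53. These distances are counted from RefSeq starts, which can differ from the GENCODE gene coordinates given below. A match describes the letters of a window and is not evidence that p53 was bound there.

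The label of the cells was checked on markers. The 10 epithelial markers summed to 2498 FPKM in PBS and 2572 FPKM in oxalate, and Epcam alone was at 125.71 and 125.33 FPKM. Of these markers, Krt5 was at 0 and 0.03 FPKM. All 8 immune markers, Ptprc among them, were listed at 0 in both libraries, 5 fibroblast markers summed to 3.07 and 2.59 FPKM with 2 of them, Lum and Fap, at 0, and 4 endothelial markers to 0.08 and 0.11 FPKM. From the steps between low FPKM values, the depth was estimated at about 56700000 reads with PBS and 36500000 reads with oxalate.

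Trp53 mRNA was present at an almost equal level in both libraries, although the line lacks functional p53. Trp53 (ENSMUSG00000059552, chromosome 11, 69580359 to 69591873, GRCm38) was at 23.93 FPKM in PBS and 23.56 FPKM in oxalate. The PBS level was above that of 81.4% of all listed genes and of 60.3% of those with a mean of at least 1 FPKM. On the scale log2((oxalate + 1)/(PBS + 1)), used for all differences unless stated, it differed by -0.02. The 95% interval of the log2 read ratio, computed by the exact Clopper-Pearson method on estimated reads, ran from -0.12 to 0.07 and so included no difference. Such intervals cover counting error only. Its neighbour Wrap53, which starts in the opposite direction 103 bases away, was at 15.78 and 15.84 FPKM.

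The relatives of p53 were listed at 0 or were scarce. Trp73 (chromosome 4, 154056253 to 154140208), which encodes a relative that binds many of the same sites, was listed at 0 in both libraries, and at its length 3 reads would have been worth 0.021 FPKM in PBS and 0.032 FPKM in oxalate. Trp63, the third member of the family and a factor of basal epithelium, was at 0.2 FPKM in PBS and 0.32 FPKM in oxalate. Trp53 was therefore the only one of the 3 family genes above 1 FPKM in these libraries.

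**Figure D1:**
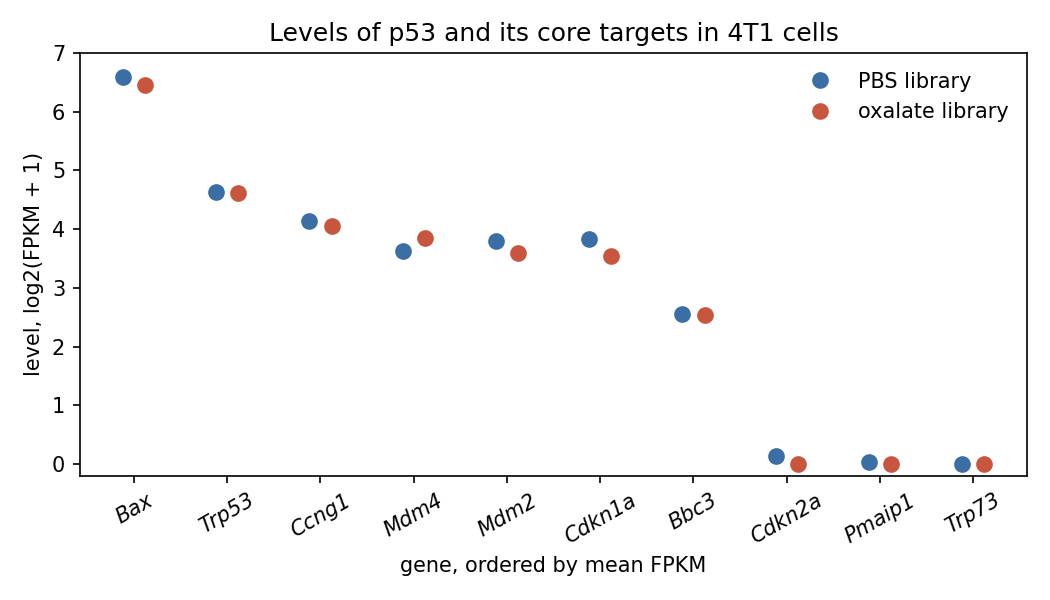
Levels of the 10 genes in the PBS library (blue) and the oxalate library (red), as log2(FPKM + 1) on the vertical axis, with the genes in order of mean FPKM on the horizontal axis and 1 point per library. Bax stood highest, 6 genes lay between 4.84 and 23.93 FPKM, and Cdkn2a, Pmaip1 and Trp73 lay at or near 0.

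The 2 inhibitors of p53 stood in opposite order in the libraries. Mdm2 (chromosome 10, 117688875 to 117710758), which marks p53 for degradation, was at 12.95 FPKM in PBS and 11.12 FPKM in oxalate (log2 difference -0.20, 95% interval of the read ratio -0.32 to -0.12). Mdm4 (chromosome 1, 132959484 to 133030561), which binds p53 and blocks its activity without degrading it efficiently by itself, was at 11.39 FPKM in PBS and 13.42 FPKM in oxalate (0.22, interval 0.15 to 0.33). The Mdm2 level was 1.14 times that of Mdm4 with PBS and 0.829 times with oxalate, and the counting intervals of the 2 genes did not overlap in either library. Counting intervals do not cover the transcript lengths assumed, on which an order of different genes also depends. Of all genes with a mean of at least 1 FPKM, 16.5% differed by at least as much as Mdm2 and 14.4% by at least as much as Mdm4, in either direction. Mdm2 has 2 annotated coding transcripts and Mdm4 has 5, and values per gene do not show which of them were present.

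Cdkn2a was close to absent. The gene (ENSMUSG00000044303, chromosome 4, 89274471 to 89294653) encodes ARF, the inhibitor of Mdm2, and the CDK inhibitor p16INK4a from partly shared exons. It was at 0.1 FPKM with PBS, about 5 reads, and was listed at 0 with oxalate, where 3 reads would have been worth 0.094 FPKM. A difference between the libraries was not detectable at this depth. The nearest gene on the list around it, Cdkn2b, which encodes the CDK inhibitor p15INK4b and lies 11.6 kb away, was at 0.04 FPKM in PBS and had a listed value of 0 in oxalate. Mtap, which encodes an enzyme of methionine salvage and lies 93.4 kb to the other side, was at 149.64 FPKM in PBS and 132.81 FPKM in oxalate. The low level was thus shared by Cdkn2a and Cdkn2b and not by Mtap.

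Of the genes farther out, Klhl9, which encodes a ubiquitin ligase adaptor, was at 7.44 and 6.15 FPKM and Focad, which encodes a focal adhesion protein, at 7.55 and 7.45 FPKM. Hacd4, which encodes an enzyme of fatty acid elongation, was at 0.54 and 0.64 FPKM. The interferon genes Ifna1, Ifna2 and Ifnb1, the neuronal gene Elavl2 and the transcription factor gene Dmrta1 were listed at 0 in both libraries. Of the 10 genes around Cdkn2a, 5 were therefore listed at 0 and 3 had a mean of at least 1 FPKM. Among all 21911 genes, 7979 were listed at 0 in both libraries and 46.9% had such a mean.

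**Figure D2:**
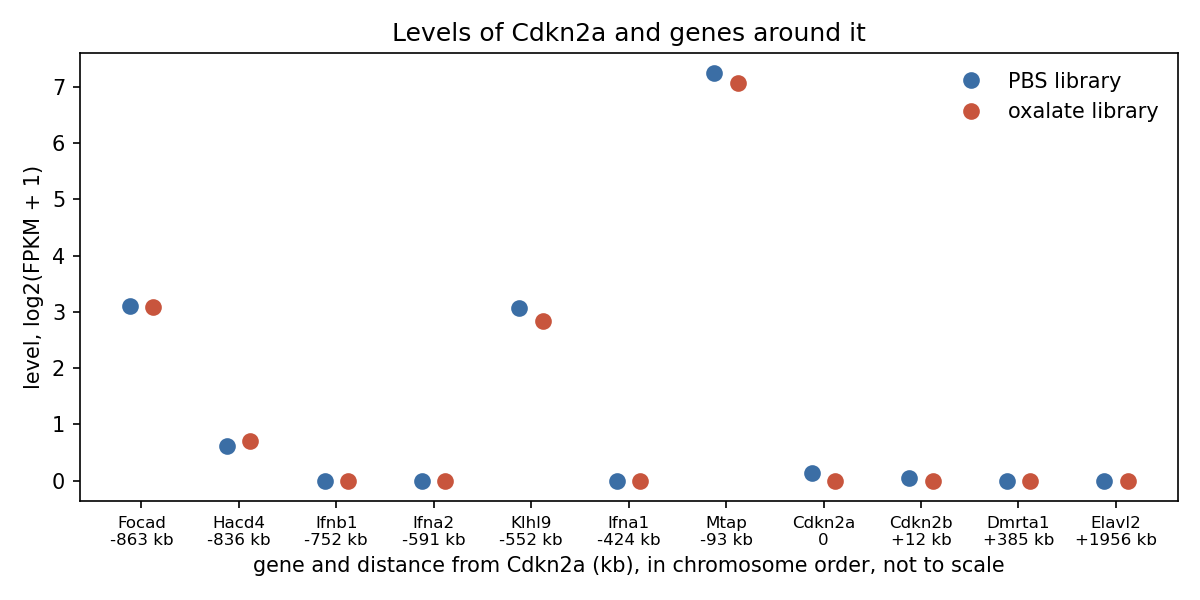
Levels of Cdkn2a and 10 genes around it in the PBS library (blue) and the oxalate library (red), as log2(FPKM + 1), in their order along the chromosome with the distance from Cdkn2a in kb under each name. Mtap stood out at 149.64 and 132.81 FPKM, while Cdkn2a and Cdkn2b lay at or under 0.1 FPKM.

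Both arrest genes among the core targets were expressed. Cdkn1a (ENSMUSG00000023067, chromosome 17, 29090976 to 29100727) encodes p21, which inhibits cyclin-dependent kinases and is the textbook p53 target in arrest. It was at 13.26 FPKM in PBS and 10.67 FPKM in oxalate, a log2 difference of -0.29 with an interval of the read ratio from -0.46 to -0.17. This was the largest difference among the 7 core genes with a mean of at least 1 FPKM, and 8.14% of all such genes differed by at least as much. Ccng1 (chromosome 11, 40748552 to 40755311), which encodes cyclin G1, a partner of a phosphatase in the p53 feedback loop, was at 16.58 FPKM in PBS and 15.58 FPKM in oxalate (-0.08, interval -0.17 to -0.0092). Cdkn1a stood at 0.554 times the Trp53 level with PBS and 0.453 times with oxalate.

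The 3 genes of cell death covered nearly the whole range of levels. Bax (chromosome 7, 45461697 to 45466898), which encodes the effector that permeabilises the mitochondrial outer membrane, was the highest of the core genes at 95.8 FPKM in PBS and 86.74 FPKM in oxalate (log2 difference -0.14, interval -0.22 to -0.07). Bbc3 (chromosome 7, 16308393 to 16318205), which encodes the BH3-only protein PUMA, was at 4.89 FPKM in PBS and 4.84 FPKM in oxalate (-0.01, interval -0.31 to 0.28). Pmaip1, which encodes the BH3-only protein NOXA, was at 0.02 FPKM in PBS, about 2 reads, and its listed value in oxalate was 0. Bax thus stood far above Bbc3 and Pmaip1, and its level was 19.6 times that of Bbc3 with PBS and 17.9 times with oxalate. Bax shares 192 exon bases with the predicted gene Gm45808 on the same strand, which was at 0.02 and 0.03 FPKM. In RNA from a whole culture, fewer cells that express a gene and less RNA per cell cannot be told apart.

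With PBS the order of levels was Bax, Trp53, Ccng1, Cdkn1a, Mdm2, Mdm4 and Bbc3. The counting intervals of neighbours were separate except for Cdkn1a (12.5 to 14.0 FPKM) and Mdm2 (12.4 to 13.5 FPKM). With oxalate Bax, Trp53 and Ccng1 kept the first places and Bbc3 the last, and the order between them was Mdm4, Mdm2 and Cdkn1a. There the intervals of Mdm2 (10.5 to 11.8 FPKM) and Cdkn1a (9.83 to 11.6 FPKM) overlapped. The change of order thus concerned genes whose levels lay within 10.67 and 13.42 FPKM. These intervals cover counting error only and not the transcript length behind each FPKM value. For Mdm4 in PBS, estimated reads were 2284 with the mean coding length and 9565 with all exons joined. The order of different genes therefore depends on the lengths used.

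Taking the core genes as a group, none of the 7 with a mean of at least 1 FPKM differed 1.5-fold or more between the libraries on the scale with the pseudocount. The other 3 core genes were below this mean and are not part of the count. Among all 10267 genes with such a mean, 1.99% differed at least 1.5-fold and 0.653% at least 2-fold, so that a count of 0 of 7 is near this background. Of the 7 genes, 6 were lower with oxalate and only Mdm4 was higher, against 49% of all genes lower. The median log2 difference was -0.084 for the 7 genes and 0.0031 for all genes. The interval of the read ratio excluded 0 for 5 of the 7, namely Cdkn1a, Mdm2, Bax and Ccng1 on the lower side and Mdm4 on the higher side. It also excluded 0 for 48.8% of all genes, so a difference beyond counting error was found for nearly as many genes as not between these 2 libraries.

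**Figure D3:**
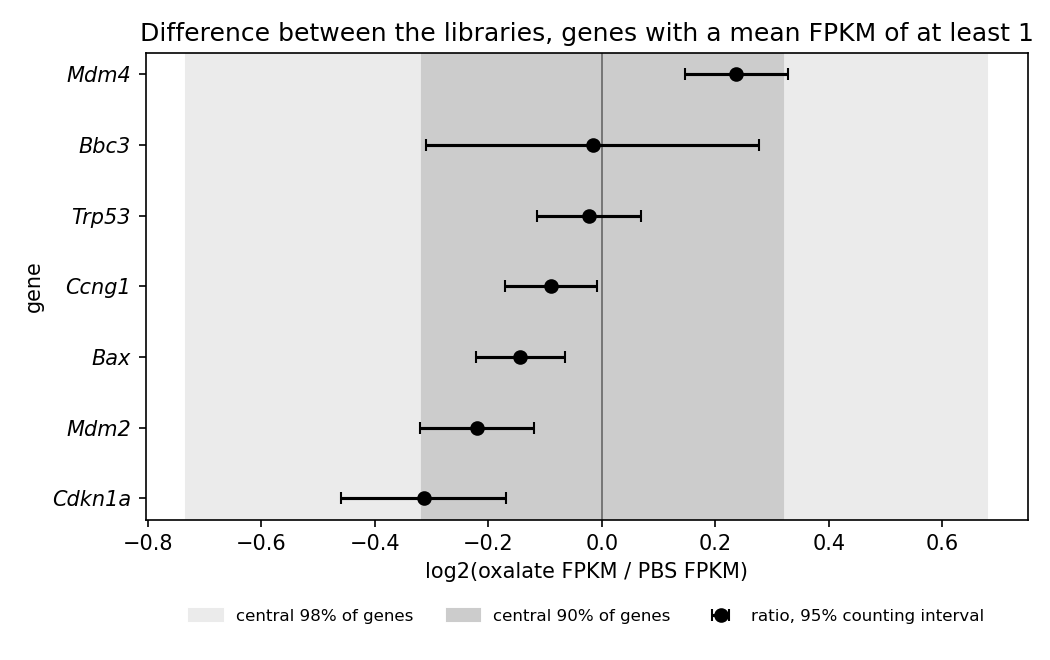
Difference between the libraries for the 7 core genes with a mean of at least 1 FPKM, as log2 of the oxalate FPKM over the PBS FPKM without a pseudocount. Points are the ratio and bars its exact 95% counting interval, and the grey bands hold the central 90% and 98% of all genes with such a mean. All 7 points lie inside the band of 90%, with Cdkn1a at -0.31 near its edge at -0.32.

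The wider p53 pathway was described from 6 lists, 1 of the p53 family with its regulators and 5 of target genes. Of the 30 family and regulator genes, 27 had a mean of at least 1 FPKM. Among these 27, 16 were higher and 11 lower in the oxalate library, and none differed 1.5-fold. Their median log2 difference was 0.016. The highest levels were those of Npm1, which encodes the nucleolar protein nucleophosmin (2187 FPKM in PBS and 2054 FPKM in oxalate), and of Rpl5 (575.95 and 574.25 FPKM) and Rpl11 (503.92 and 483.8 FPKM), ribosomal proteins that can bind and inhibit Mdm2. Processed copies of such genes are frequent in the genome, so these 3 values are uncertain.

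The 5 target lists together hold 78 genes, core targets included, of which 76 were in the table and 62 had a mean of at least 1 FPKM. That is 81.6% of those in the table, against 46.9% of all genes. The median level of the 62 was 13.1 FPKM in PBS and 11.5 FPKM in oxalate, below the 16.5 FPKM of all genes with such a mean in either library. With oxalate 28 were higher, 33 lower and 1 equal, with a median log2 difference of -0.015. At least 1.5-fold differences were found in 3 of the 62 (4.84%, against 1.99% of all genes) and at least 2-fold differences in 2 (3.23%, against 0.653%). These counts are of 3 genes and rest on Aen, Steap3 and Gpx1. The lists were chosen with earlier results of these data known, so the shares may not be independent of those results.

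Aen, which encodes a nuclease that acts in apoptosis downstream of p53, stood at 27.92 FPKM in PBS and at 64.43 FPKM in oxalate (log2 difference 1.18, interval of the read ratio 1.14 to 1.28). Steap3, which encodes a ferrireductase also tied to p53-dependent death and exosome release, was at 3.4 FPKM in PBS and 5.86 FPKM in oxalate (0.64, interval 0.62 to 0.95). The 17 cell death targets with a mean of at least 1 FPKM, these 2 included, had a median of -0.012, with 8 higher and 9 lower. Perp, which encodes a desmosomal protein, was at 114.19 and 124.7 FPKM, and Bid, which encodes a BH3-only protein cleaved by caspases, at 135.14 and 136.11 FPKM. The cell death targets thus included abundant genes that differed little. Ei24, also abundant, was at 79.32 FPKM in PBS and 57.59 FPKM in oxalate (-0.46, interval -0.53 to -0.40), the most negative difference of this list. Aen has 6 annotated coding transcripts and Steap3 has 5.

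Gpx1 was the single target that was at least 2-fold lower in the oxalate library. It encodes a glutathione peroxidase that removes hydrogen peroxide, and its level was 396.61 FPKM in PBS against 123.5 FPKM in oxalate (-1.68, interval -1.73 to -1.63). It has 3 annotated coding transcripts. The 12 targets in metabolism and redox control with a mean of at least 1 FPKM split into 6 higher and 6 lower (median -0.017). Sco2, which encodes an assembly factor of cytochrome c oxidase, was at 16.51 and 23.0 FPKM, and Prkab1, which encodes a subunit of AMP-activated kinase, at 47.95 and 50.35 FPKM.

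No gene of the other 3 target lists differed 1.5-fold. The 12 arrest targets with a mean of at least 1 FPKM had a median of -0.021, with 4 higher and 8 lower. Sfn, which encodes 14-3-3σ, was at 114.3 and 106.74 FPKM, Plk2, a polo-like kinase gene, at 110.05 and 108.71 FPKM, and Cdc42ep3, which encodes an effector of Cdc42, at 37.08 and 34.79 FPKM. The 10 DNA repair targets had a median of -0.044, with 4 higher and 6 lower. Among them Pcna, the replication clamp, was at 187.1 and 200.78 FPKM, and Rrm2b, a subunit of ribonucleotide reductase, at 21.21 and 18.4 FPKM. The 12 targets with feedback or other roles had a median of 0.0077, with 6 higher and 5 lower. The highest of these were Thbs1, a matrix glycoprotein gene (303.75 and 346.29 FPKM), Rps27l, which encodes a ribosomal protein paralog (167.35 and 141.99 FPKM), and Epha2, an ephrin receptor gene (115.45 and 122.43 FPKM).

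**Figure D4:**
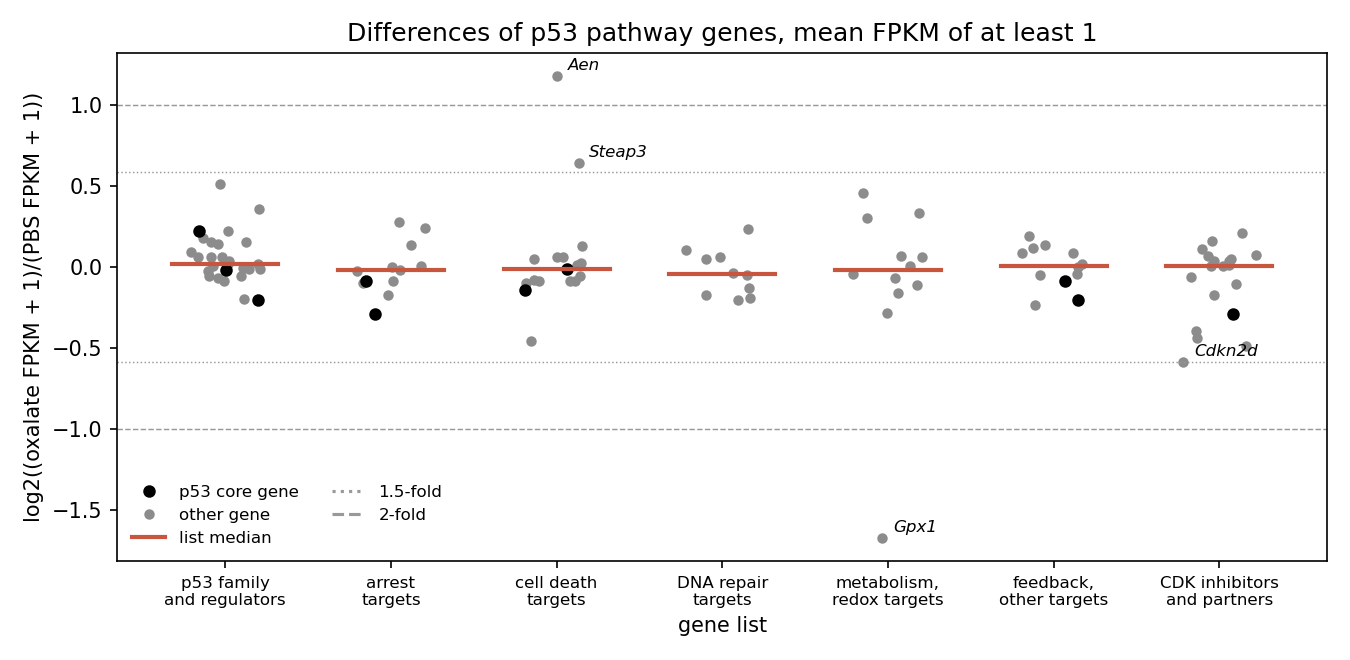
Differences between the libraries for genes with a mean of at least 1 FPKM in 7 lists, as log2((oxalate + 1)/(PBS + 1)), with core genes in black, other genes in grey and list medians as red bars. Dotted and dashed lines mark 1.5-fold and 2-fold. Aen (1.18), Steap3 (0.64), Gpx1 (-1.68) and Cdkn2d (-0.59) lie at or past the dotted lines, and every list median lies near 0.

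A group of targets was at 0 or nearly so. Of the 76 targets in the table, 14 had a mean below 1 FPKM, and 5 of these were listed at 0 in both libraries, namely Cpt1c, Eda2r, Mgmt, Rprm and Zfp365. Such levels were more frequent among all 21911 genes, of which 11644 had a mean below 1 FPKM and 7979 were at 0 in both. Btg2, an antiproliferative gene induced early by p53, was at 0.76 FPKM in PBS and 0.47 FPKM in oxalate. Trp53inp1, which encodes a cofactor of p53, was at 0.21 and 0.24 FPKM. Pmaip1 belongs to this group, whereas Cdkn1a, Mdm2, Ccng1, Bax and Bbc3 do not. The core targets thus differed among themselves more in their level than between the libraries. Small differences between the libraries were general, as 90.1% of all genes with a mean of at least 1 FPKM differed less than 1.2-fold.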

How the data were processed

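RNA of PBS- and oxalate-treated 4T1 cells was compared with 1 library per condition, grouped by the treatment label. The authors enriched mRNA with oligo(dT), made randomly primed cDNA and deposited 1 FPKM value per library, to 2 decimals, for each of 21911 Ensembl identifiers. The submitters' processing notes name Bowtie2 2.2.8 and TopHat2 2.1.1. The quantification tool, genome build and annotation are not given in the sources used here, nor whether strand was used. Rounding and the assignment of reads among transcripts can shift low genes and genes with several transcripts.

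Symbols, coordinates and lengths came from GENCODE M21 (GRCm38), in which 21848 identifiers were found and 63 were not. Differences were log2((oxalate + 1)/(PBS + 1)), which understates low genes, and were summarised for genes whose mean over both libraries reached 1 FPKM. Differences of at least 1.5-fold and 2-fold were counted. No test across conditions was possible. Depth was estimated from genes with 1 transcript shorter than 700 bases, whose FPKM times length fell on multiples of 1 step in 89 genes (PBS) and 75 genes (oxalate). All of these values lay within 0.2 reads of a whole number. Reads per gene used the mean length of coding transcripts, and intervals are exact 95% intervals of counting error. A gene listed at 0 was given the value of 3 reads as its limit.

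The 8 gene lists, like the core genes, were chosen with earlier results of these data known. All core genes were named, and from each list the genes changed at least 1.5-fold and the 3 highest. For the genes around Cdkn2a all were named. A result that this rule would name is not reported here. Targets below 1 FPKM were named after their values were seen, as were Trp63, Ei24, Cdkn1b, Cdkn2c, Rb1, Rbl1, E2f3 and Wrap53. No gene was matched to the core genes by pattern, since 2 libraries give 1 difference per gene. Alternatives were other pseudocounts, filters, a rescaling and other lengths. Scripts were tested on simulated data. Protein sequences were not used here. Calculations used scipy 1.17.1, pandas 2.3.3 and numpy 2.4.6 in Python 3.11.15, and figures matplotlib 3.10.9.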

Additional observations from a re-analysis of the deposited data

How the results depend on the processing

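No paired analysis was possible because there is 1 library for PBS and 1 for oxalate, and none was left out for the same reason. With pseudocounts of 0.1 and 0.001, with oxalate values rescaled to a median ratio of 1, without a filter and with a mean of at least 5 FPKM, 0 of the core genes differed 1.5-fold among those counted, and their median stayed between -0.11 and -0.057. The runs with smaller pseudocounts kept the filter, and the run without a filter kept a pseudocount of 1. With that pseudocount, genes at or under 0.1 FPKM cannot reach 1.5-fold, so leaving out the filter could not change the count. The value of Cdkn2a, at about 5 reads and 0, moved from -0.14 to -1.0 and -6.66 with the smaller pseudocounts, and that of Pmaip1, at about 2 reads and 0, from -0.029 to -0.26 and -4.39. For the lists, 4 of 40 medians changed sign, all of them near 0. With a mean of at least 5 FPKM these were DNA repair (0.046), metabolism (0.061) and feedback targets (-0.015). Without a filter it was the CDK inhibitor list (-0.026). The median of the genes around Cdkn2a moved from -0.17 to 0 without a filter. Of 40 list counts 3 moved: cell death from 2 to 1 gene with a mean of at least 5 FPKM, and the CDK inhibitor list from 1 to 2 genes, Rb1 being the second, with either smaller pseudocount. Estimated reads depended on the length assumed, for example 2455 reads of Trp53 in PBS with the mean coding length and 5493 with all exons joined, so the counting intervals are approximate.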

Other observations

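The cyclin-dependent kinase inhibitors related to Cdkn1a and the genes they act on were also read. Of 22 genes, 19 had a mean of at least 1 FPKM, with 11 higher and 8 lower with oxalate and a median log2 difference of 0.0041. Cdkn2d, which encodes the inhibitor p19INK4d, was the one gene of the list past 1.5-fold with a pseudocount of 1, at 6.66 FPKM in PBS and 4.09 FPKM in oxalate (-0.59). Cdkn1b, which encodes p27, was at 14.7 and 10.92 FPKM, and Cdkn2c, which encodes p18INK4c, at 49.06 and 55.03 FPKM. Of the inhibitor genes with a mean of at least 1 FPKM, Cdkn1a, Cdkn1b and Cdkn2d were therefore lower with oxalate, and only Cdkn2c was higher. Cdkn1c and Cdkn2b were at 0.06 and 0.04 FPKM in PBS and at 0 in oxalate, as Cdkn2a was at 0.1 FPKM and 0.

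The levels of their partners spanned a wide range. Cdk4, the kinase that p16INK4a would inhibit, was at 333.3 and 341.03 FPKM, Ccnd1, which encodes cyclin D1, at 298.86 and 301.26 FPKM, and E2f4, which encodes a repressor bound to pocket proteins, at 171.81 and 180.79 FPKM. Rb1, which encodes the retinoblastoma protein, was low at 1.96 FPKM in PBS and 1.11 FPKM in oxalate (-0.49, interval of the read ratio -1.07 to -0.58) and passed 1.5-fold with either smaller pseudocount, while its relative Rbl1 was at 8.94 and 9.21 FPKM. E2f3, an activator gene of this family, was at 9.15 and 6.47 FPKM.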
